A study of Mus musculus with 11 samples.

Results

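Prostaglandins are lipid signals made from arachidonic acid, and 9 genes of this route were followed here through the cells of mouse perigonadal white adipose tissue (pgWAT), the fat depot beside the gonads. The members were fixed by name as the rows of the count matrix that map to Ptgs1, Ptgs2, Ptgis, Ptges, Ptgds, Ptgir, Ptgfr, Ptger4 and Alox15, and all 9 were found among 23507 gene rows. A cyclooxygenase, Ptgs1 or Ptgs2, turns arachidonic acid into an unstable intermediate that terminal synthases convert to prostacyclin (Ptgis), prostaglandin E2 (Ptges) or prostaglandin D2 (Ptgds). The products leave the cell and act nearby on receptors coupled to G proteins, among them those for prostacyclin (Ptgir), prostaglandin F2α (Ptgfr) and prostaglandin E2 (Ptger4, the EP4 receptor). Alox15 encodes a lipoxygenase that oxidizes arachidonic and linoleic acid without a cyclooxygenase. In fat, prostacyclin and prostaglandin E2 are known to act on blood vessels and on the formation and lipid release of adipocytes.

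The study profiled single cells of the stromal vascular fraction (SVF), the cells left once adipocytes are removed, by Smart-seq2 on 11 plates. Cells were sorted by the signal of a Pdgfrb-eGFP reporter, named PDGFRB in the labels, and by surface CD31. On part of the plates DPP4 was used too, and CD45-positive cells were gated out. There were 1177 cells of male mice (4 plates, 3 mouse identifiers) and 2084 cells of female mice (7 plates, 4 identifiers), and one female identifier, 6/7, stands for 2 animals. All mice of both sexes carried the Pdgfrb-eGFP reporter transgene on a C57BL6/J background, were fed chow and were 12 to 20 weeks old. Neither sex included mice without the reporter, and each plate belonged to a single mouse identifier. The labels of 2 plates name PDGFRB and CD31 sorts together, and on each of the other plates, which held a single sort, plate and sort cannot be told apart. The 3261 cells held 149931 to 3548334 reads each (median 629323). Clusters made without the genes of this route gave 2249 adipose stem cell (ASC)-like cells, 568 endothelial cell (EC)-like cells, 137 macrophage-like cells and 101 mural-like cells, the last made up of 60 pericyte-like and 41 vascular smooth muscle cell (VSMC)-like cells. The smaller classes were 22 lymphatic EC-like and 19 epithelial-like cells, and 165 cells stayed unnamed. As an alternative only, classes were set from the markers of each cell, by its highest marker score. That rule kept 1651 of the 2249 cells as ASC-like and placed the others in other classes. The 4 ASC markers (Pdgfra, Col1a1, Dcn and Lum) summed to between 6764 and 21028 counts-per-million (CPM) units in ASC-like cells of a mouse and to at most 45.3 CPM in EC-like cells. Macrophage-like cells were present in spite of the gate on CD45, and their markers Cd68, Cd14 and Cd163 summed to 571 and 1172 CPM in the 2 mice with such cells against 2.48 to 8.13 CPM in ASC-like cells. ASC-like cells were further divided by marker scores within each mouse into 805 ASC1a-like, 669 ASC1b-like and 775 ASC2-like cells. Each score was scaled within the mouse, and a cell was given the subtype of its highest score. A subtype is thus relative to the ASC-like cells of the same mouse. Similar numbers of the 3 subtypes in each mouse follow from this rule and do not measure their abundance. The scores are continuous, and 360 ASC-like cells (16.0%) lay close to a boundary between subtypes. A level in the text is the CPM of all reads of a class in a mouse, given for classes with at least 10 cells in that mouse. In such sums, fewer cells that express a gene and less RNA per cell cannot be told apart.

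Promoters are shown for 4 members on which the results turn. These are the pair of cyclooxygenases, of which Ptgs1 but not Ptgs2 was called between ASC subtypes, and the receptors Ptgir and Ptger4. The levels of these receptors parted between ASC-like and EC-like cells. Each is 300 bases of the RefSeq table on GRCm38.p6, from 250 bases before the start site, 5′ to 3′ on the gene's strand, and 7 of the 9 members were matched in that table (not Ptgis and Alox15). Capitals mark 4 motifs searched on both strands, namely the TATA box TATAAA, the GC box GGGCGG, the E-box CACGTG and the core of the cyclic AMP response element (CRE) TGACG.
Ptgs1: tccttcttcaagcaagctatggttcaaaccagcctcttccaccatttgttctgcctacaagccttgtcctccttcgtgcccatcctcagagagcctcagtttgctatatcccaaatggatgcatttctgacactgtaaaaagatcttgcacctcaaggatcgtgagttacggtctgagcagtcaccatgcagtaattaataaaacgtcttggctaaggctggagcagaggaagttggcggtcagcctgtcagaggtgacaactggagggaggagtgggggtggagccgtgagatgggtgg
Ptgs2: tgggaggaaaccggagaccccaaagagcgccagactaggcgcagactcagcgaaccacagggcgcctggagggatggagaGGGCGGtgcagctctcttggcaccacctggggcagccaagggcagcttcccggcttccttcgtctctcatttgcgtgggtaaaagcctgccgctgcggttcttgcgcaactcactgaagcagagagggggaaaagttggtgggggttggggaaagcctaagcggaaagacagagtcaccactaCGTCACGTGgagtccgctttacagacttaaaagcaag
Ptgir: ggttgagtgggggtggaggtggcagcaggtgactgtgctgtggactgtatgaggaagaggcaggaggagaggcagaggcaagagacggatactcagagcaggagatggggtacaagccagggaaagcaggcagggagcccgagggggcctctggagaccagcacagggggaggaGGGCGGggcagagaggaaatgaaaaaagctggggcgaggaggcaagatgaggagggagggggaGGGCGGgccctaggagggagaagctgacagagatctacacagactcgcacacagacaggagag
Ptger4: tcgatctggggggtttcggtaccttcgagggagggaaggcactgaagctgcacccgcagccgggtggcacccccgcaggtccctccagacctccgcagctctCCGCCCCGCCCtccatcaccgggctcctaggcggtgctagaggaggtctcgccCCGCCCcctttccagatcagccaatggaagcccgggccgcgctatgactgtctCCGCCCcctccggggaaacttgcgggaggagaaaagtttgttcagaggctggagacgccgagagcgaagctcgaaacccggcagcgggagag
Ptgs1 (ENSMUSG00000047250) covers chr2:36230426-36252272 and Ptgs2 (ENSMUSG00000032487) chr1:150100031-150108227, both on the plus strand of GRCm38. Ptgir (ENSMUSG00000043017) lies at chr7:16906490-16910905 on the plus strand and Ptger4 (ENSMUSG00000039942) at chr15:5206661-5244187 on the minus strand. The other members, all on the minus strand, are Ptgis (ENSMUSG00000017969, chr2:167191805-167240604), Ptges (ENSMUSG00000050737, chr2:30889471-30929863), Ptgds (ENSMUSG00000015090, chr2:25466709-25470046), Ptgfr (ENSMUSG00000028036, chr3:151796502-151837630) and Alox15 (ENSMUSG00000018924, chr11:70344152-70352031). The Ptgs1 window (chr2:36230176-36230475, plus strand) held none of the 4 motifs, as did 41.6% of the 32851 promoters of this length in the table. The Ptgs2 window (chr1:150099781-150100080, plus strand) held a GC box whose first base lay at -170 from the start site and, after the start site, a CRE core on the minus strand that overlaps an E-box (first bases at +13 and +16). Over all promoters, 35.7% held a GC box, 20.8% a CRE core, 13.6% a TATA box and 7.15% an E-box. The Ptgir window (chr7:16906240-16906539, plus strand) held 2 GC boxes, at -76 and -13, and the Ptger4 window (chr15:5244138-5244437, minus strand) held 4, at -148, -143, -95 and -42. CpG dinucleotides numbered 6 in Ptgs1, 16 in Ptgs2, 6 in Ptgir and 25 in Ptger4, against a median of 7 over all promoters. A match is a string of letters and was not tested as a binding site. No chromatin data were part of the files used here.

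To set genes side by side, RPKM were used, which are CPM divided by the exon length in kilobases. By this measure ASC-like cells held the prostacyclin synthase Ptgis at the highest mean level of the 9 members, 80.1 ± 28.2 RPKM (SD, n = 7 mice), followed by Ptges at 32.0 ± 16.2 RPKM. Next came the prostacyclin receptor Ptgir (13.8 ± 10.9 RPKM) and the cyclooxygenases Ptgs2 (6.81 ± 3.53 RPKM) and Ptgs1 (3.95 ± 1.84 RPKM). Ptger4 reached 1.61 ± 1.24 RPKM, and Ptgfr, Alox15 and Ptgds were below 1 RPKM on average (0.628, 0.548 and 0.0929 RPKM). In EC-like cells the order was different: Ptger4 led at 21.2 ± 9.69 RPKM (n = 5 mice), and the next member, Ptges, stood at 1.90 ± 1.63 RPKM. In macrophage-like cells Ptgs1 led at 6.31 and 8.46 RPKM in the 2 mice, and in mural-like cells Ptgir (5.24 and 7.36 RPKM in mice 1 and 2) and Ptger4 (1.74 and 9.72 RPKM) had the highest means of the 2 mice. In mouse 1 alone Ptgis stood above both, at 6.64 RPKM, and it had no read in mouse 2.

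**Figure D1:**
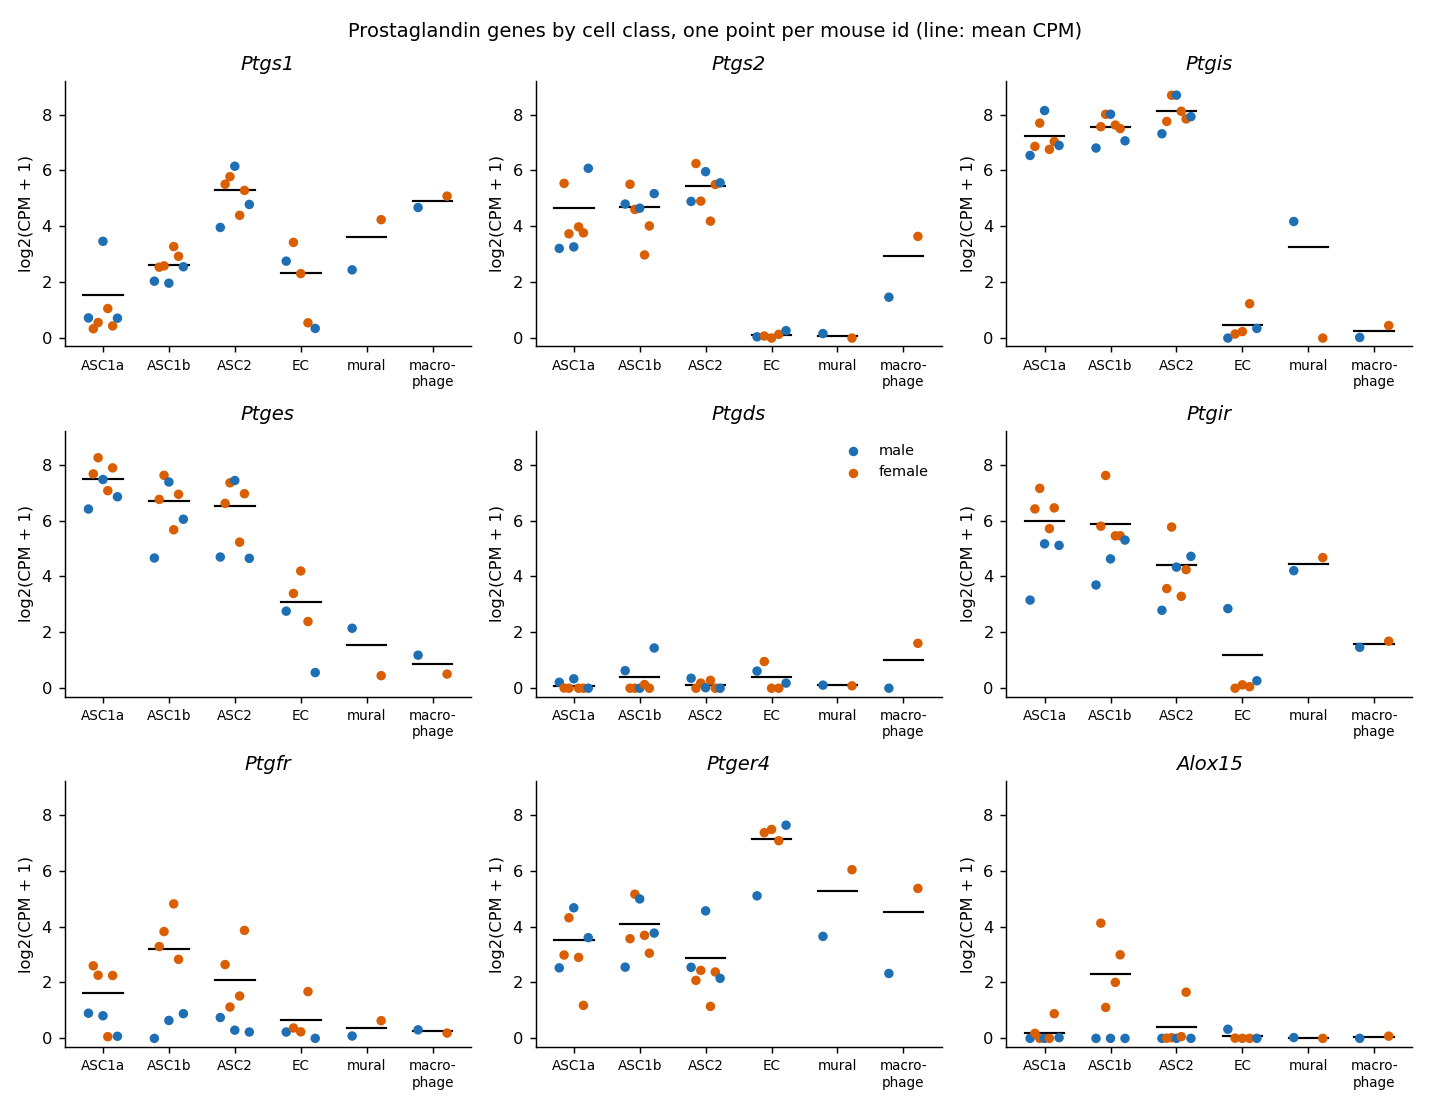
Level of each of the 9 genes, as log2(CPM + 1) of the summed reads, in 3 ASC subtypes and in EC-like, mural-like and macrophage-like cells, with 1 point for each mouse identifier coloured by sex and a line at the mean CPM. Ptgis lies at or above 91.9 CPM in all ASC subtypes and at or below 1.35 CPM in EC-like and macrophage-like cells, while Ptger4 spans 33.3 to 197 CPM in EC-like cells.

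The question of which cells carry the route was put to a fit of sums per mouse and class with mouse as a block (edgeR quasi-likelihood test, Benjamini-Hochberg adjustment over 12846 genes). Genes that passed both an adjusted p of 0.05 and a fold change of 2.6 are referred to as called. The EC-like, mural-like and macrophage-like contrasts share the same ASC-like sums. Of the 9 members, 8 were tested, and Ptgds was left out by the filter of more than 600 reads in at least 2 sums. Ptger4 and Ptgs1 would have passed that filter without the ASC-like sums, while the other 6 members passed only with them, so that counts and medians of members lower than in ASC-like cells are a description.

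Between EC-like and ASC-like cells 6 of the 8 members were called, 1 higher and 5 lower in EC-like cells, where 21.8% of all tested genes were called (8.2% higher and 13.6% lower). The median log2 fold change was -5.21 over the 8 members and -0.19 over all tested genes. Ptgis, which makes the vasodilator prostacyclin, measured 122 to 313 CPM in ASC-like cells (median 179 CPM). In EC-like cells Ptgis had no read in mouse 1 and measured 0.105, 0.175, 1.35 and 0.271 CPM in mice 2, 5, 6/7 and 8. The groups did not overlap, and Ptgis was lower in EC-like cells with a log2 fold change of -9.97 (SE 1.70, adjusted p = 0.00204). A fitted value of this size rests on very few reads in EC-like cells and depends on the prior count of the fit. Ptgs2, the inducible cyclooxygenase, measured 13.2 to 55.9 CPM in ASC-like cells (median 24.3 CPM) and at most 0.203 CPM in EC-like cells of any mouse, where 20 reads were counted in all 5 mice together (log2 fold change -9.14, SE 1.01, adjusted p = 0.000183). Ptges, the inducible prostaglandin E synthase, measured 43.8 to 219 CPM in ASC-like cells (median 135 CPM) and 5.76, 9.49, 17.3, 4.23 and 0.474 CPM in EC-like cells of mice 1, 2, 5, 6/7 and 8. It was lower in EC-like cells of all 5 mice (log2 fold change -4.30, SE 1.00, adjusted p = 0.0108). For Ptgs1, the constitutive cyclooxygenase, the EC-like values of 5.74, 9.74, 3.95, 0.461 and 0.271 CPM overlapped the ASC-like range of 6.48 to 25.8 CPM, and the difference missed the threshold (log2 fold change -2.42, SE 0.90, adjusted p = 0.0794). The edgeR likelihood ratio test (adjusted p = 0.0176), DESeq2 (0.00225) and the fit without the mouse block (0.042) called it. Few EC-like cells carried Ptgs1 or Ptges, since the top 5% of cells gave 98.0% and 98.7% of their reads.

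The receptors parted. Ptger4 measured 33.3, 163, 177, 134 and 197 CPM in EC-like cells of mice 1, 2, 5, 6/7 and 8 and 4.05 to 26.2 CPM in ASC-like cells (median 6.75 CPM). All EC-like values lay above all ASC-like values, and the gene was higher in EC-like cells of 5 of 5 mice (log2 fold change 4.05, SE 0.48, adjusted p = 0.000281). Mouse 1, the lowest of these, also had the lowest sum of the 4 EC markers, 2112 CPM against 4233 to 7309 CPM in the other mice, and 171 of its 177 EC-like cells came from another cluster than most EC-like cells of the other mice. Whether this bears on its Ptger4 level was not tested. Ptgir measured 8.45 to 122 CPM in ASC-like cells (median 34.3 CPM) and 0, 0.0877, 0.0384 and 0.203 CPM in EC-like cells of mice 2, 5, 6/7 and 8. In mouse 1 Ptgir measured 6.21 CPM in EC-like cells, from 4 of 177 cells with a read without thinning. The gene was called lower in EC-like cells (log2 fold change -6.90, SE 2.00, adjusted p = 0.03), but the call was lost without mouse 2, 5, 6/7 or 8 (adjusted p = 0.0619 to 0.1). Ptgfr measured 0.319 to 8.98 CPM in ASC-like cells (median 5.35 CPM) and 0 to 2.19 CPM in EC-like cells. These ranges overlapped, the ASC-like values below 2.19 CPM being those of the 3 male mice, and the blocked fit called Ptgfr lower in EC-like cells (log2 fold change -3.89, SE 1.01, adjusted p = 0.0188), a call that was lost without mouse 2 or mouse 5 (adjusted p = 0.0824 and 0.0836) and with classes set from the markers of each cell (0.0662). Alox15 was not called between these classes (log2 fold change -6.13, SE 3.29, adjusted p = 0.22). Without mouse 1, in which 24 of the 25 EC-like reads of Alox15 were found, it was called (adjusted p = 0.00467).

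Mural cells wrap small vessels (pericytes) and larger ones (VSMC). They were compared in 2 mice only, and 2 of 8 members were called between mural-like and ASC-like cells, against 8.1% of all genes (4.3% higher and 3.79% lower). The median log2 fold change was -3.75 over the members and -0.21 over all genes. Ptgs2 had 6 reads in mural-like cells of mouse 1 (0.119 CPM) and none in those of mouse 2, and was lower there (log2 fold change -7.99, SE 1.5, adjusted p = 0.0124). Ptger4 measured 11.5 and 64.6 CPM in mural-like cells of mice 1 and 2 against 4.81 and 6.75 CPM in ASC-like cells of the same mice (log2 fold change 2.52, SE 0.58, adjusted p = 0.0278). Transcripts of endothelial cells moved with this value: 5 endothelial genes (Pecam1, Ptprb, Cdh5, Tie1 and Cldn5) summed to 475 CPM in mural-like cells of mouse 1 and to 5050 CPM in those of mouse 2, and all 5 were detected in both. Cell type differed too. In mouse 1, Ptger4 measured 20.9 CPM in 44 pericyte-like and 0.218 CPM (5 reads) in 38 VSMC-like cells. All 13 mural-like cells of mouse 2 were pericyte-like. The 5 endothelial genes summed to 857 CPM in the pericyte-like and 13.2 CPM in the VSMC-like cells of mouse 1. Reads of these 5 genes and cell type cannot be told apart here. Among the 32 mural-like cells of all mice with at most 10 CPM of these genes, of which 28 came from mouse 1 and none from mouse 2, Ptger4 was lower than in ASC-like cells (log2 fold change -3.54, adjusted p = 0.115) and none of the members was called. The call of Ptger4 was also lost without mouse 2 (adjusted p = 0.275), mouse 6/7 (0.0576) or the block (0.157), and that of Ptgs2 without mouse 2 (0.119) or with the 32 cells (0.053). With classes set from the markers of each cell, Ptgs2 (log2 fold change -0.995) and Ptger4 (1.02) were not called (adjusted p = 0.9999 for both). Under that rule part of the ASC-like cells were counted in other classes, and the effect of this was not tested. Ptgir measured 17.5 and 24.5 CPM in mural-like cells, inside the ASC-like range (adjusted p = 0.742). Ptgis measured 17.03 CPM in mouse 1 and had no read in mouse 2 (adjusted p = 0.355). In mouse 1, VSMC-like cells held Ptgis at 34.6 CPM and pericyte-like cells at 2.50 CPM, and over all mice a read of it was seen in 12 of 41 VSMC-like cells (29.3%) and 4 of 60 pericyte-like cells (6.67%) thinned to 100000 reads each (51.2% and 36.7% without thinning). The remaining members Ptgs1, Ptges, Ptgfr and Alox15 were not called (adjusted p = 0.591, 0.0538, 0.143 and 0.277). For Ptges (3.43 and 0.366 CPM) the likelihood ratio test (0.00108), DESeq2 (3.91e-07) and the fit without the block (0.012) did call it, and for Ptgfr the likelihood ratio test (0.0333) and DESeq2 (0.0097).

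Macrophages are known as a source of prostaglandins in inflamed fat. Between macrophage-like and ASC-like cells, again from 2 mice, 2 of 8 members were called, both lower, against 15% of all genes (5.95% higher and 9.08% lower). The median log2 fold change was -4.23 over the members and -0.19 over all genes. Ptgis measured 0.0157 and 0.364 CPM in macrophage-like cells of mice 1 and 5 and 122 and 192 CPM in ASC-like cells of the same mice (log2 fold change -10.21, SE 2.66, adjusted p = 0.03). Ptges measured 1.27 and 0.42 CPM against 43.8 and 74.8 CPM (log2 fold change -7.58, SE 1.77, adjusted p = 0.0184). Both calls were lost without mouse 5, and that of Ptges without mouse 1 too (adjusted p = 0.168 for Ptgis without mouse 5, and 0.137 and 0.0777 for Ptges without mouse 5 and mouse 1). With classes set from the markers of each cell, the log2 fold changes were -0.84 for Ptgis and -0.64 for Ptges and neither was called (adjusted p = 0.79 and 0.81). Here too part of the ASC-like cells were counted in other classes, which was not tested as a source of the smaller values. Ptgs1 was detected in 41 of 137 macrophage-like cells after thinning (59 without) and measured 24.5 and 32.9 CPM, beside 6.48 and 9.85 CPM in ASC-like cells of these mice, a difference that did not pass (log2 fold change 0.91, SE 1.2, adjusted p = 0.705). Ptger4 differed between the 2 mice (4.00 CPM in mouse 1 and 40.3 CPM in mouse 5) and was not called (adjusted p = 0.163), although it was without mouse 1 (log2 fold change 2.67, adjusted p = 0.0249). Ptgs2 (1.76 and 11.5 CPM), Ptgir (1.76 and 2.21 CPM), Ptgfr (0.235 and 0.14 CPM) and Alox15 (0 and 0.056 CPM) did not pass either (adjusted p = 0.447, 0.237, 0.154 and 0.322).

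Ptgds, the prostaglandin D2 synthase, had little signal in the main classes, with means over mice from 0.0701 to 1.02 CPM. Its highest value in a main class was 2.05 CPM, in macrophage-like cells of mouse 5, and in ASC-like cells it ranged from 0 to 0.501 CPM. The exception was the epithelial-like class, 19 cells of mouse 1 alone, in which 17 cells (89.5%) had a read and the level was 216 CPM (95% Poisson interval 207 to 225 CPM, counting error only). A single cell gave 45.1% of these 2291 reads. With cells of 1 mouse there was no test.

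ASC1a, ASC1b and ASC2 are states of the adipose stem cell, of which ASC2 (Dpp4, Cd55) is known as the less committed and more multipotent. No member was among the markers that set the subtypes, which are relative to the ASC-like cells of each mouse. Sums per mouse and subtype were compared in 1 fit with mouse as a block (11155 genes, n = 7 mice), in which 7 of the 9 members were tested and Ptgds and Alox15 were too low. The 3 contrasts share sums, so that their values are given side by side.

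**Figure D2:**
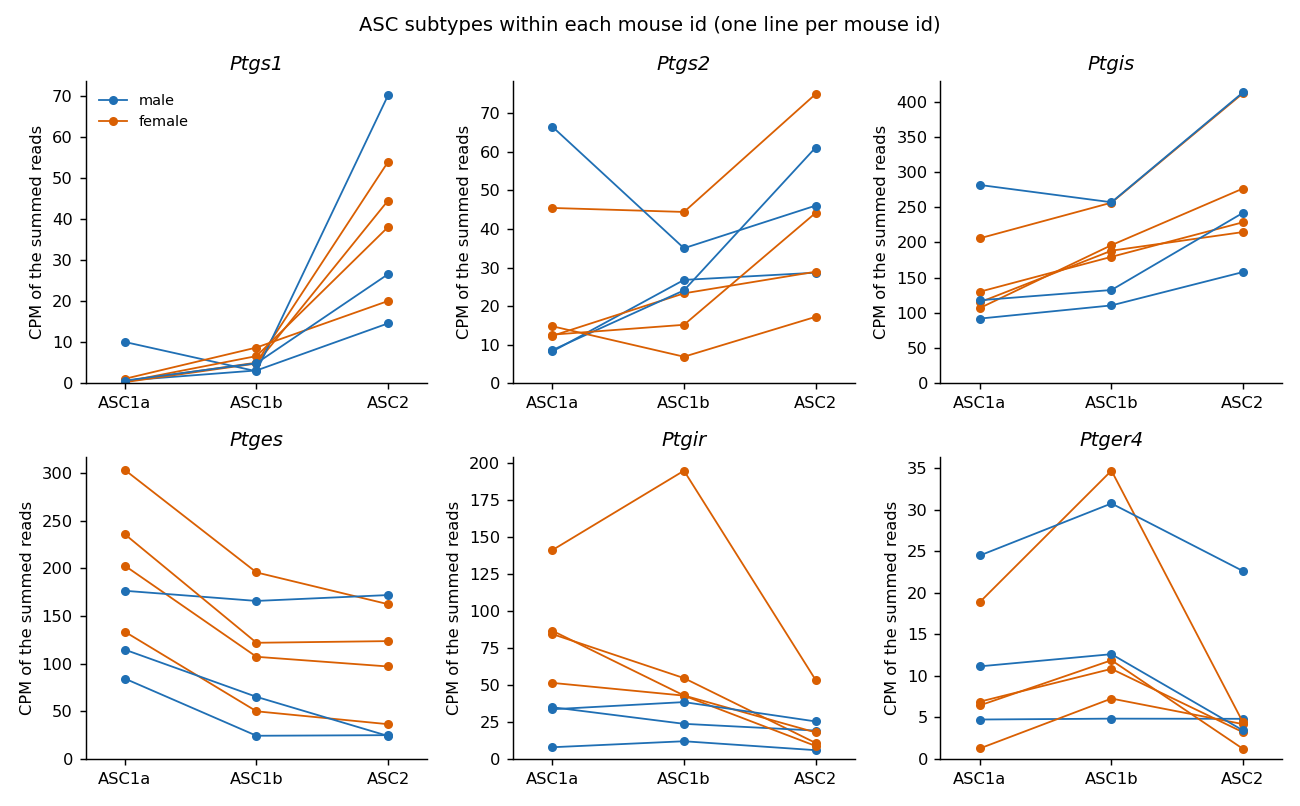
Level of 6 genes in ASC1a-like, ASC1b-like and ASC2-like cells, as CPM of the summed reads on a linear axis from 0, with a line for each of the 7 mouse identifiers coloured by sex. Ptgs1 is higher in ASC2-like than in ASC1a-like cells in 7 of 7 mice (medians 0.638 and 38.0 CPM), and Ptgir and Ptges are lower in ASC2-like than in ASC1a-like cells in 7 of 7 mice.

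Among the cyclooxygenases, Ptgs1 set the subtypes apart most. It measured 0.26 to 10.03 CPM in ASC1a-like cells (median 0.638 CPM), 2.90 to 8.69 CPM in ASC1b-like cells (median 4.87 CPM) and 14.6 to 70.1 CPM in ASC2-like cells (median 38.0 CPM). The ASC2-like range lay above both others. Against ASC1a-like cells 2 of 7 members were called, where 3.3% of all genes were (1.76% higher and 1.54% lower), and Ptgs1 was the one that rose (log2 fold change 5.26, SE 0.64, adjusted p = 2.86e-05). Against ASC1b-like cells 2 of 7 members were called as well, with 2.82% of all genes (1.3% higher and 1.52% lower), and Ptgs1 was again higher in ASC2-like cells, in 7 of 7 mice (log2 fold change 2.70, SE 0.55, adjusted p = 0.00436). Between ASC1b-like and ASC1a-like cells Ptgs1 was the single member called, where 0.547% of all genes were (0.43% higher and 0.117% lower). Its log2 fold change there was 2.56 (SE 0.60, adjusted p = 0.0364), it was higher in ASC1b-like cells of 6 of 7 mice, and the call was lost without any 1 of mice 1, 2, 3, 5, 6/7 or 8 (adjusted p = 0.083 to 0.146) and without the block (0.923). The mouse that went the other way was mouse 4, whose ASC1a-like cells held 10.03 CPM of Ptgs1 against at most 1.08 CPM in the other 6 mice. Without thinning, a read of Ptgs1 was found in 48.8% of them and in 2.94% to 16.7% of the ASC1a-like cells of the other mice. When every cell was thinned to 100000 reads, Ptgs1 was seen in 4.6% of ASC1a-like, 7.47% of ASC1b-like and 33.2% of ASC2-like cells (17.4%, 19.9% and 47.6% without thinning), beside 5.11% of EC-like cells, and the ASC1a-like share was thus no higher than that of EC-like cells. Median depths were 613280, 692623, 702062 and 517939 reads in that order. Ptgs1 reads were uneven between cells, since the top 5% of ASC2-like cells gave 45.8% of them.

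For Ptgs2 the ranges of the subtypes overlapped widely. It measured 8.25 to 66.5 CPM in ASC1a-like (median 12.6 CPM), 6.87 to 44.4 CPM in ASC1b-like (median 24.1 CPM) and 17.2 to 75.0 CPM in ASC2-like cells (median 44.2 CPM). The value was higher in ASC2-like than in ASC1a-like cells in 6 of 7 mice. The difference was just short of the adjusted p limit and also under the fold limit (log2 fold change 1.08, SE 0.33, adjusted p = 0.0516). Against ASC1b-like cells it was 0.82 (SE 0.32, adjusted p = 0.158), and between ASC1b-like and ASC1a-like cells 0.27 (SE 0.33, adjusted p = 0.825). Ptgs2 is known to be switched on when tissue is dissociated, as are early genes such as Fos, Egr1 and Hspa1a. For 15 such genes the median log2 fold change in ASC2-like against ASC1a-like cells was -0.58, with 0 of 15 called by edgeR and 10 of 15 at an unadjusted p below 0.05. Of all 11155 genes, 2287 were below 0.05 in that contrast. The sum of the 15 early genes in ASC-like cells ran from 5919 CPM in mouse 1 to 23008 CPM in mouse 2. The part of dissociation in the Ptgs2 level of any class was not tested.

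The 2 terminal synthases differed in direction. Ptgis measured 91.9 to 282 CPM in ASC1a-like (median 118 CPM), 111 to 257 CPM in ASC1b-like (median 188 CPM) and 158 to 413 CPM in ASC2-like cells (median 242 CPM), and within each mouse ASC2-like cells had the highest value, in 7 of 7 mice against either other subtype. The difference passed the adjusted p but not the fold limit against ASC1a-like cells (log2 fold change 0.94, SE 0.10, adjusted p = 1.04e-05) and against ASC1b-like cells (0.54, SE 0.10, adjusted p = 0.00273). Between ASC1b-like and ASC1a-like cells it missed both limits (0.40, SE 0.10, adjusted p = 0.0612). Ptges went the other way, with 84.2 to 303 CPM in ASC1a-like (median 176 CPM), 24.3 to 196 CPM in ASC1b-like (median 107 CPM) and 24.1 to 172 CPM in ASC2-like cells (median 97.0 CPM). It was lower than in ASC1a-like cells in 7 of 7 mice in both other subtypes, and passed the adjusted p but not the fold limit (log2 fold change -1.24, SE 0.21, adjusted p = 0.000605 for ASC2-like, and -0.96, SE 0.20, adjusted p = 0.0216 for ASC1b-like cells). The difference between ASC2-like and ASC1b-like cells did not pass (log2 fold change -0.28, SE 0.20, adjusted p = 0.526). The sum of 10 adipocyte markers (among them Adipoq, Plin1 and Lpl) moved the same way and was higher in ASC1a-like cells (458 to 3528 CPM) than in ASC1b-like (238 to 1475 CPM) and ASC2-like cells (136 to 1069 CPM) of the same mouse in 7 of 7 mice, with at most 4 of the 10 at 0 in a sum. Its part in the Ptges difference was not tested. In thinned cells, a cyclooxygenase read and a Ptgis read occurred together in 367 of 775 ASC2-like cells (47.4%), in 134 of 669 ASC1b-like cells (20.03%) and in 131 of 805 ASC1a-like cells (16.3%). With Ptges in place of Ptgis the shares were 36.3%, 20.3% and 16.8%. Such a share depends on the level of each gene and on the number of cells with any read.

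Among the receptors, Ptgir measured 7.90 to 141 CPM in ASC1a-like (median 51.4 CPM), 11.9 to 195 CPM in ASC1b-like (median 42.8 CPM) and 5.91 to 53.5 CPM in ASC2-like cells (median 17.95 CPM). The ranges overlapped because mice differed, yet within each of the 7 mice ASC2-like cells had the lowest value. Ptgir was called lower in ASC2-like than in ASC1a-like cells (log2 fold change -1.52, SE 0.28, adjusted p = 0.00168), close to the fold limit, and fell under that limit without mouse 2, 5 or 6/7 (-1.31, -1.34 and -1.36). Without the block its adjusted p was 0.17. Against ASC1b-like cells it passed the adjusted p but not the fold limit (log2 fold change -1.31, SE 0.28, adjusted p = 0.00599), and the difference between ASC1b-like and ASC1a-like cells did not pass (-0.21, SE 0.27, adjusted p = 0.836). Ptger4 measured 1.27 to 24.5 CPM in ASC1a-like (median 6.90 CPM), 4.85 to 34.7 CPM in ASC1b-like (median 11.9 CPM) and 1.21 to 22.6 CPM in ASC2-like cells (median 4.19 CPM). It was lower in ASC2-like than in ASC1b-like cells in 7 of 7 mice and was called (log2 fold change -1.44, SE 0.40, adjusted p = 0.0346), but not without mouse 2, 3, 4, 5 or 8 (adjusted p = 0.0504 to 0.114), without the block (0.449) or under a lower filter on counts (0.0624). The other contrasts of Ptger4 were not called (adjusted p = 0.353 for ASC2-like and 0.474 for ASC1b-like against ASC1a-like cells). Ptgfr, seen in 3.48% to 7.47% of cells of a subtype after thinning, was not called in any of the 3 contrasts (adjusted p = 0.983, 0.506 and 0.607). Alox15, too low to test, had a median of 1.15 CPM in ASC1b-like cells and of at most 0.0046 CPM in the other 2 subtypes. Under the lower filter of 10 reads in 2 sums it could be tested and was not called in ASC1b-like against ASC1a-like (log2 fold change 5.73, adjusted p = 0.169) or ASC2-like against ASC1b-like cells (-5.41, adjusted p = 0.0839).

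**Figure D3:**
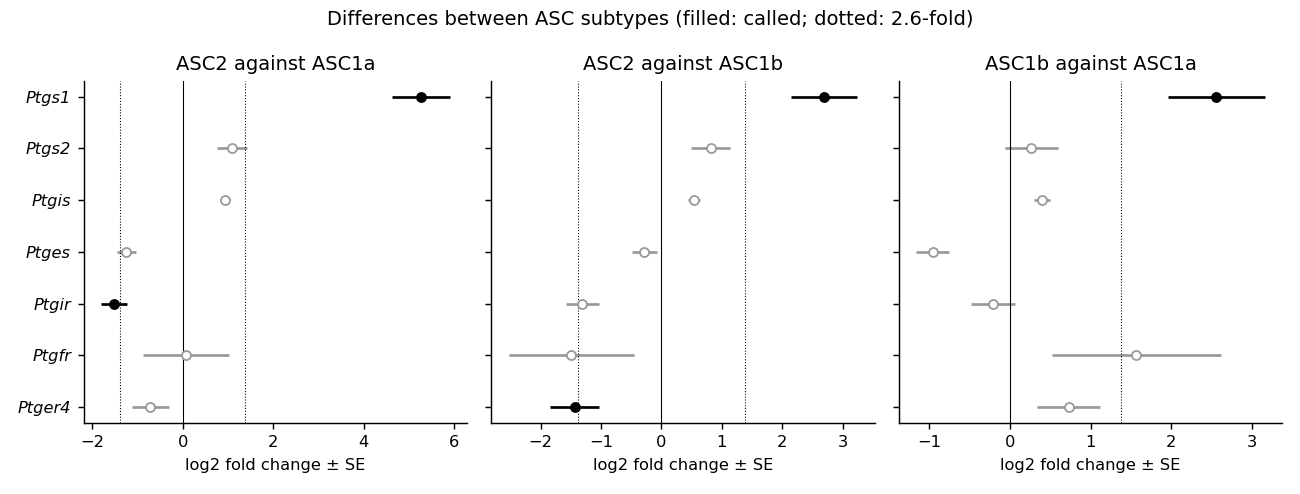
Log2 fold change of the 7 tested genes (rows) in the 3 contrasts of ASC subtypes (panels), with bars of 1 SE from the edgeR fit; filled points are called at an adjusted p below 0.05 and over 2.6-fold, and dotted lines mark the fold limit. Ptgs1 lies at 5.26, 2.70 and 2.56 and is called in all 3, while Ptgir and Ptger4 lie below 0 where they are called.

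Markers of mesothelial cells, which line the fat and are known to make prostacyclin, were higher in ASC2-like and ASC1b-like than in ASC1a-like cells in part of the mice. The ASC-like cells came mostly from sorts for the signal of the Pdgfrb-eGFP reporter. The 4 mesothelial markers (Msln, Upk3b, Lrrn4 and Krt19) summed to 266 CPM in ASC2-like cells of mouse 5, to 42.5, 30.3, 7.24, 4.61, 0.596 and 0.0243 CPM in those of mice 4, 1, 2, 6/7, 3 and 8, and to at most 4.12 CPM in ASC1a-like cells. In ASC1b-like cells they summed to 99.4, 93.7 and 25.7 CPM in mice 1, 5 and 4 and to at most 0.937 CPM in the other mice, so that mouse 1 had more of them in ASC1b-like than in ASC2-like cells. In mice 3 and 8, where 3 of the 4 markers were at 0 in ASC2-like cells, Ptgs1 measured 53.9 and 26.5 CPM in ASC2-like cells against 0.471 and 0.638 CPM in ASC1a-like cells. In the other mice Ptgs1 measured 14.6 to 70.1 CPM in ASC2-like cells and 0.26 to 10.03 CPM in ASC1a-like cells. Whether mesothelial transcripts have a part in the Ptgs1 level of ASC2-like cells was not tested.

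Mouse 2 gave a second view of the subtypes, since its PDGFRB-positive cells were sorted onto a DPP4-positive and a DPP4-negative plate. DPP4 is a surface marker of ASC2, and its own gene measured 178 CPM in the 379 ASC-like cells of the first plate and 1.72 CPM in the 368 of the second. The PDGFRB gate of the first plate is uncertain from the labels. With 1 plate for each sort there was no test, and intervals cover counting error only. Ptgs1 measured 32.2 CPM (95% Poisson interval 31.5 to 32.8) on the DPP4-positive plate and 2.63 CPM (2.44 to 2.82) on the DPP4-negative plate, a ratio of 12.2. Ptgis (203 and 143 CPM) and Ptgs2 (64.4 and 46.9 CPM) were higher on the positive plate. Ptgir (27.7 and 70.4 CPM), Ptges (117 and 154 CPM), Ptger4 (4.14 and 9.51 CPM) and Ptgfr (3.90 and 8.73 CPM) were higher on the negative plate. Alox15 measured 0.71 CPM (0.619 to 0.811) and 9.63 CPM (9.28 to 9.997), a ratio of 13.6 in favour of the negative plate. These cells are also part of the subtype sums of mouse 2 and are no independent sample.

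To ask whether the route differed between the sexes, ASC-like sums of 3 male and 4 female mouse identifiers were compared without a block (edgeR quasi-likelihood test, 11816 genes), and 8 of the 9 members were tested. Levels here are CPM after scaling by trimmed mean of M values (TMM). Both members called, Ptgfr and Alox15, were lower in male mice, where 2.24% of all genes were called (1.56% higher and 0.686% lower in males). Both passed the filter of more than 600 reads only through the female sums where they are high, so that their count is a description. Under the filter of 10 reads both were called as well (adjusted p = 0.017 for Ptgfr and 0.0379 for Alox15). Male sums of Ptgfr, with 44 to 128 reads, pass that filter. Alox15 had at most 1 read in a male sum and passed this filter, too, only through the female sums.

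**Figure D4:**
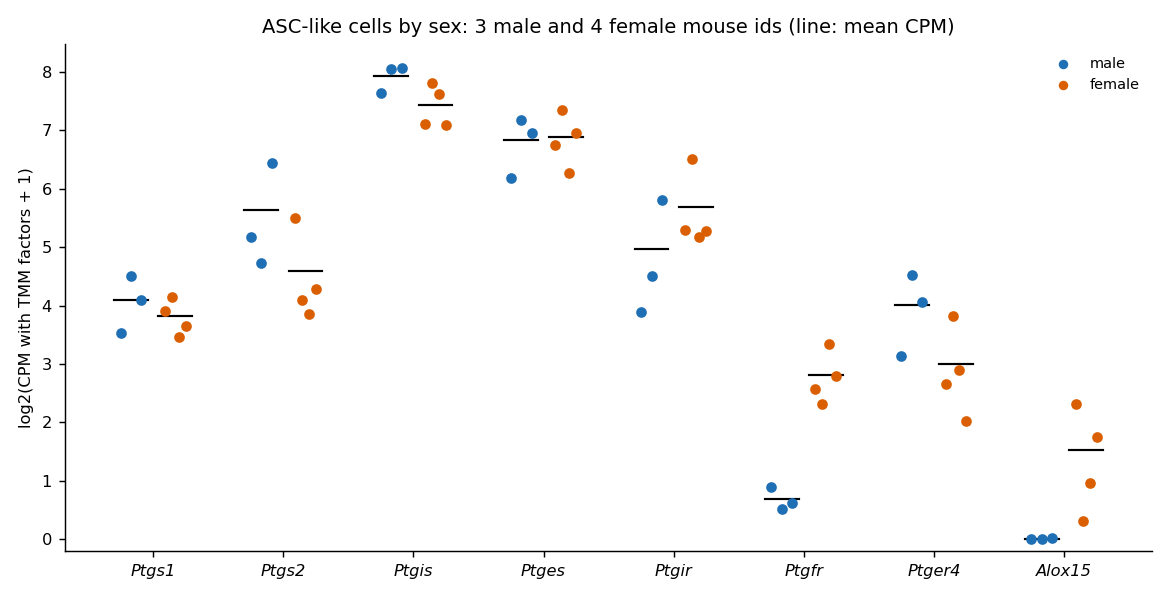
Level of the 8 tested genes in ASC-like cells by sex, as log2(TMM-scaled CPM + 1), with 1 point for each mouse identifier (3 male, 4 female) and a line at the mean CPM of each sex. The 2 sexes are apart for Ptgfr (0.435 to 0.854 against 3.96 to 9.13 CPM) and Alox15, and overlap for the other genes.

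The receptor Ptgfr binds prostaglandin F2α, which is known to hold back the differentiation of preadipocytes. It measured 0.854, 0.435 and 0.538 CPM in male mice 1, 4 and 8 and 4.92, 3.96, 9.13 and 5.96 CPM in female mice 2, 3, 5 and 6/7. As reads these were 44 to 128 in a male and 612 to 3712 in a female sum. The sexes did not overlap, which was also true of 16.2% of all tested genes. The log2 fold change of male against female was -3.30 (SE 0.51, adjusted p = 0.0112), from means of 0.609 ± 0.218 CPM (SD, n = 3) and 5.99 ± 2.25 CPM (n = 4), and the call held when any 1 mouse was left out. A small number of cells carried Ptgfr: 5.6% of ASC-like cells had a read after thinning (11.8% without), and the top 5% of cells gave 97.0% of the reads.

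Alox15 measured 3.97, 0.24, 0.955 and 2.35 CPM in female mice 2, 3, 5 and 6/7. Among male mice it had no read in mice 1 and 4 and a single read in mouse 8. Without TMM scaling that read stood for 0.00726 CPM, and no read in mice 1 and 4 allows up to 0.0139 and 0.0122 CPM (3 reads). The sexes did not overlap. The fitted log2 fold change of -9.45 (SE 1.60, adjusted p = 0.0168) depends on the prior count, and as reads the female sums held 3730 and the male sums 1, a ratio of summed CPM of 2208 (95% interval 396 to 87231, counting error only). The call was lost without mouse 4 or mouse 8 (adjusted p = 0.065 and 0.0586), and the gene fell under the filter without mouse 2 or mouse 6/7. Of the 75 ASC-like cells with an Alox15 read without thinning (3.33%, against 1.65% after thinning), 56 were of mouse 2, 13 of mouse 6/7, 3 of mouse 5, 2 of mouse 3 and 1 of mouse 8. Most reads were in ASC1b-like cells, with 3492 in females (16.4, 1.15, 3.01 and 6.95 CPM in mice 2, 3, 5 and 6/7, without TMM scaling) and none in males, at least 767-fold higher against a floor of 3 reads over the male group. Some macrophages of the peritoneum are known to express Alox15. The macrophage markers Cd68, Cd14 and Cd163 summed to 5.19, 8.13, 2.92 and 2.94 CPM in the same female ASC-like sums and to 3.04, 5.73 and 2.48 CPM in the male ones. The macrophage-like class, which came from mice 1 and 5 only, held Alox15 at 0 and 0.056 CPM. The part of macrophage transcripts in the Alox15 level of ASC-like sums was not tested.

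The remaining 6 tested members were not called between the sexes. Ptgs2 measured 35.0, 25.5 and 86.2 CPM in males and 44.0, 16.1, 13.4 and 18.4 CPM in females (log2 fold change 1.09, SE 0.50, adjusted p = 0.271). Ptger4 measured 7.82, 22.02 and 15.6 CPM in males and 5.32, 13.1, 6.45 and 3.07 CPM in females (1.12, SE 0.49, adjusted p = 0.25). In both the sexes overlapped. Ptgir (log2 fold change -0.74, SE 0.51), Ptgis (0.49, SE 0.28), Ptgs1 (0.30, SE 0.31) and Ptges (-0.05, SE 0.34) had adjusted p-values of 0.445, 0.365, 0.619 and 0.944.

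Whether a sex difference itself varied between subtypes was tested as an interaction over 21 sums of mouse and subtype. None of the 7 tested members was called by the quasi-likelihood test, against 0.0628% of all genes. An unadjusted p below 0.05 was found for 2 of the members and for 839 of all 11155 genes. The 2 members were Ptgir and Ptgs1, with edgeR adjusted p-values of 0.217 and 0.636. The edgeR likelihood ratio test called 1, Ptgir (adjusted p = 0.0061).

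In EC-like cells (2 male and 3 female mice) Ptger4 was the single member with enough reads to test. After TMM scaling its values lay between 47.1 and 274 CPM in males and between 91.1 and 188 CPM in females, so that the male values spanned the female ones (log2 fold change 0.25, SE 0.70, adjusted p = 0.943). Of 8157 genes, 0.049% were called in this contrast (0.0123% higher and 0.0368% lower in males).

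Beside the members, 38 genes of arachidonic acid release, prostanoid synthesis, reception, breakdown and leukotriene formation were in the table. Between EC-like and ASC-like cells 29 were tested, of which 1 was higher and 6 lower in EC-like cells (median log2 fold change -0.49, against -0.19 for all genes). These 7 of 29 are close to the 21.8% called over all genes. Lower were the phospholipases Pla2g4a, which frees arachidonic acid (-7.51, SE 1.04, adjusted p = 0.000652), and Pla2g7 (-5.15), the receptor-associated Ptgfrn (-4.09), the breakdown enzymes Hpgd (-7.84) and Ptgr1 (-4.49) and the prostaglandin carrier Slco2a1 (-4.23). The exporter Abcc4 was higher (1.93, SE 0.52, adjusted p = 0.0213). Macrophage-like cells had 6 genes higher and 1 lower of the 29 tested (median 0.05, against -0.19 for all genes), where 15% of all genes were called (5.95% higher and 9.08% lower). The 6 were the thromboxane synthase Tbxas1 (log2 fold change 8.76), the hematopoietic prostaglandin D synthase Hpgds (8.15), the phospholipase Pla2g2d (8.11) and the leukotriene genes Alox5 (9.96), Alox5ap (7.96) and Ltc4s (8.78), with adjusted p-values from 0.000216 to 0.0442. Tbxa2r, the thromboxane receptor, was lower (-8.05, adjusted p = 0.0491). Of the lipoxygenase and leukotriene genes, 6 were tested in this fit but only 1 in ASC-like sums alone. The others of these genes passed the filter on reads only with sums of other classes. The count and median of route genes in macrophage-like cells are therefore a description. In mural-like cells 1 of 29 was lower (Ptgr1, -6.56, adjusted p = 0.0397) and none was higher, where 8.1% of all genes were called.

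**Figure D5:**
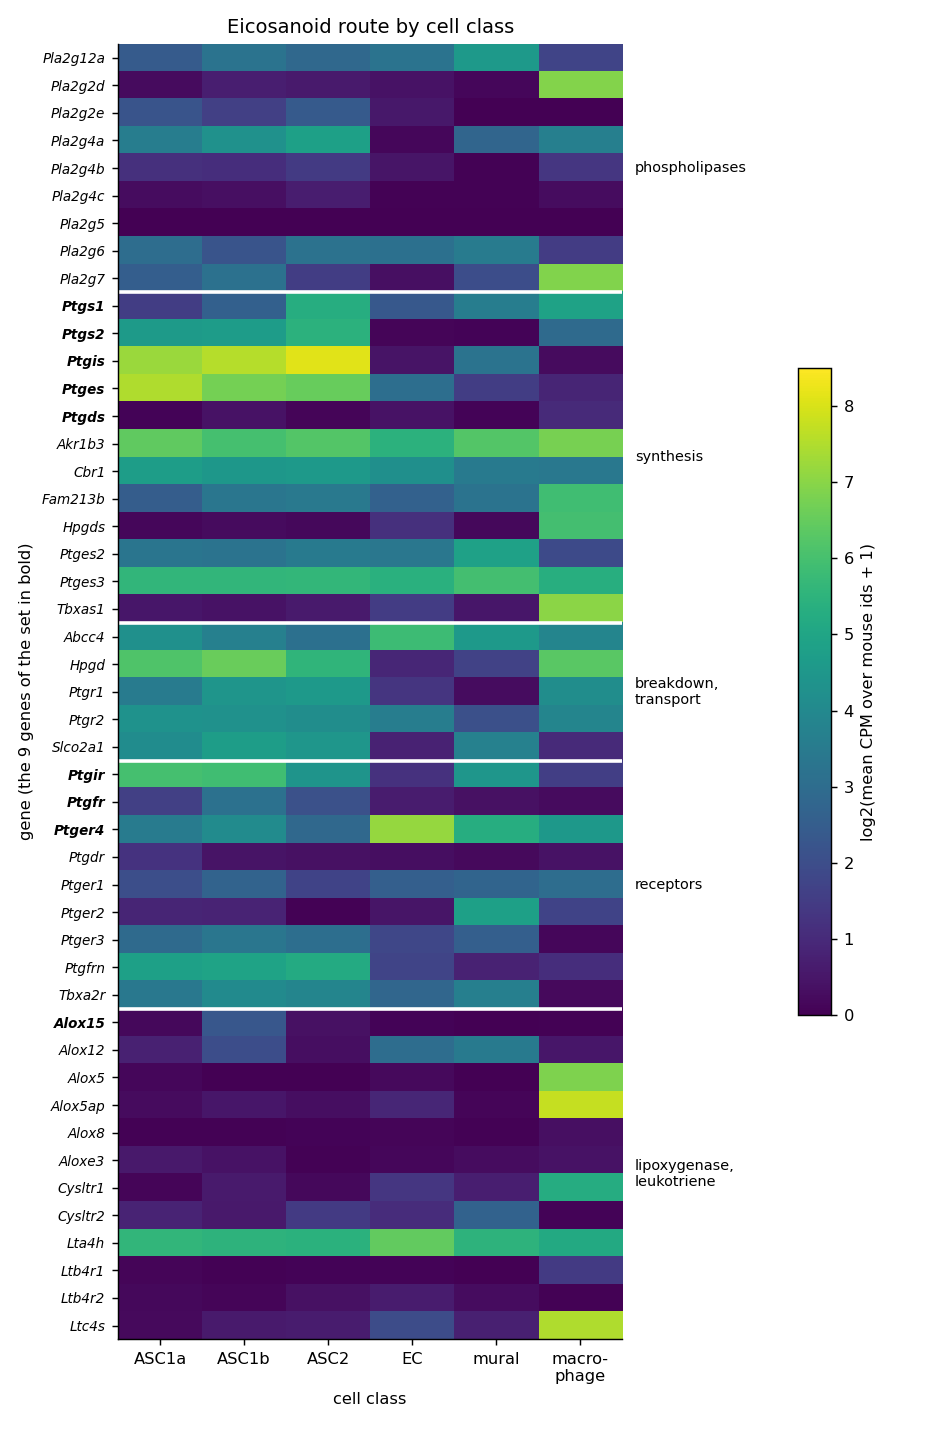
Mean level over mice of the 9 members and the other genes of the route in each class, as log2(mean CPM + 1) in a heat map with genes in rows grouped by role, members in bold and classes in columns. Ptgis, Ptges and Ptgir are high in the ASC columns, Ptger4 in the EC-like column, and Tbxas1, Hpgds, Alox5, Alox5ap and Ltc4s in the macrophage-like column.

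Within ASC-like cells 20 of these genes were tested. Pla2g4a was higher in ASC2-like than in ASC1a-like cells (log2 fold change 1.48, SE 0.23, adjusted p = 0.000319) and none was lower. In the other 2 subtype contrasts edgeR called 0 of 20, with 7 of 20 at an unadjusted p below 0.05 in each. Of all 11155 genes, 2145 were below 0.05 for ASC2-like against ASC1b-like cells and 1384 for ASC1b-like against ASC1a-like cells. Between the sexes, Slco2a1, which takes prostaglandins into cells, was higher in male ASC-like cells (log2 fold change 3.27, SE 0.33, adjusted p = 0.00146), and none of the other 19 was called.

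Over 30 sums of mouse and class, in log2(CPM + 1), each member was correlated with 23322 genes as a description. The sums share libraries within a mouse and fall into classes, so that a high value mostly marks genes of the same class. Ptgis ran closest with Loxl1 (Pearson r = 0.990), Thbs3 (0.983) and Islr (0.982). For Ptgs2 they were Steap3 (0.925), Emilin2 (0.922) and Qpct (0.913), and for Ptges 1810055G02Rik (0.941), Nsg1 (0.938) and Il11ra1 (0.938). Ptgir was nearest to Adcyap1r1 (0.927), Cygb (0.908) and Sec24d (0.889), and Ptger4 to Ets2 (0.867), Nrp1 (0.854) and Tspan17 (0.853). Ptgs1 had no gene as close, with Rras2 (0.755), Irf4 (0.715) and Slc6a4 (0.699). The low genes Ptgfr (Snhg11, 0.889, 2700033N17Rik, 0.838, and Hsd11b2, 0.826), Alox15 (1700025A08Rik, 0.851, Camk4, 0.833, and Dhrs9, 0.832) and Ptgds (Serpinf2, 0.861, Gm37229, 0.825, and Dnah12, 0.782) rest on few reads.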

How the data were processed

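Single cells of pgWAT SVF were sorted into plates and sequenced by Smart-seq2. The authors demultiplexed with bcl2fastq and produced gene counts per cell, and the submitters' processing notes name STAR, Salmon and mm10 without versions. The deposited counts are whole reads per gene without molecular identifiers, so intervals and floors of 3 reads cover counting error only. Whether counting used strand is not stated in the sources used here, and reads of overlapping genes cannot be told apart. The 72 ERCC spike-in rows (1.98% of reads) were left out.

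Cells were clustered with Seurat 5.3.0 (scale factor 500000, 3000 variable genes, 2990 after the genes of the route were left out, 14 components, resolution 1.1, 18 clusters), and clusters were named from markers. No doublet caller was run. Counts were summed per mouse identifier and class (at least 10 cells) and tested in R 4.3.3 with edgeR 4.0.16 (quasi-likelihood F test, two-sided, TMM, more than 600 reads in at least 2 sums, Benjamini-Hochberg). The block on mouse pairs classes or subtypes of the same animal, from the mouse identifiers in the labels. In the sex contrasts p-values measure the spread between mouse identifiers, and in the blocked fits how differences between classes or subtypes vary over identifiers. The 3 class contrasts came from 1 fit of 16 sums with 6 residual degrees of freedom. For mural-like and macrophage-like cells the spread is thus pooled over all classes and is not that of the 2 mice compared. Alternatives were the edgeR likelihood ratio test, DESeq2 1.42.0, RLE factors, a filter of 10 counts, other class rules, no block and leaving out each mouse. The edgeR script was tested on simulated counts. Shares of cells come from cells thinned to 100000 reads unless given as without thinning, with exact binomial intervals of 95%. Figures were drawn with matplotlib 3.10.9.

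Members and gene lists were chosen with earlier results of these data known. All 9 members are named in every comparison, and of other genes of the route those called, up to 4 for each list and comparison. For likeness the 3 genes with the highest Pearson r are named.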

Additional observations from a re-analysis of the deposited data

Results flagged for a closer look

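A mouse stood far from the others of its group in 17 of 69 groups examined (highest value of at least 1 CPM, Dixon's criterion at 95%, which chance alone meets in about 1 in 20 groups). Groups of all mice and of female mice share values.

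Mouse 3 was high for the prostacyclin receptor Ptgir in ASC-like cells (122 CPM), in ASC1b-like cells (195 CPM, among all mice and among females) and in ASC2-like cells (53.5 CPM), for Ptgis in ASC-like cells among females (299.9 CPM) and for Ptger4 in ASC1b-like cells among females (34.7 CPM). Mouse 4 was high for Ptgs1 in ASC1a-like cells (10.03 CPM) and for Ptger4 in ASC2-like cells (22.6 CPM). Mouse 2 was high for Ptgs2 in ASC1a-like cells among females (45.5 CPM) and for Alox15 in ASC1b-like cells (16.4 CPM, 2973 reads).

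Mouse 6/7 was high for Alox15 in ASC2-like cells (2.15 CPM, 149 reads, among all mice and among females), for Ptgfr in ASC2-like (13.6 CPM) and EC-like cells (2.19 CPM) and for Ptgis in EC-like cells (1.35 CPM, 70 reads). Mouse 1 was high for Ptgir in EC-like cells (6.21 CPM, from 4 of 177 cells with a read without thinning), and mouse 8 for Ptgds in ASC1b-like cells (1.71 CPM, 69 reads).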

How the results depend on the processing

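Of the counts of members called, the following moved. Between EC-like and ASC-like cells 6 members were called, and 7 by the likelihood ratio test, by DESeq2 and with no replicate block. Between mural-like and ASC-like cells 2 were called, 4 by the likelihood ratio test and by DESeq2, 2 with no replicate block, and 0 with classes from the markers of each cell or with mural-like cells of at most 10 CPM of endothelial genes. Between macrophage-like and ASC-like cells 2 were called, 2 with no replicate block, 4 by DESeq2 and 0 with classes from the markers of each cell. For ASC2-like against ASC1a-like cells 2 became 1 with no replicate block and 3 with cells at least 0.25 from a boundary, and against ASC1b-like cells 2 became 1 under the filter of 10 counts and with no replicate block and 3 with cells away from a boundary. For ASC1b-like against ASC1a-like cells 1 became 0 under the filter of 10 counts, with no replicate block and away from a boundary. The interaction went from 0 to 1 under the likelihood ratio test (Ptgir). Leaving out each mouse gave 4 to 7, 0 to 3 and 0 to 2 members for EC-like, mural-like and macrophage-like cells, 1 to 3, 1 to 2 and 0 to 1 for the 3 subtype contrasts in the order given, 0 to 0 for the interaction and for the sexes in EC-like cells, and 1 to 2 for the sexes in ASC-like cells, where every other alternative, including the one without the DPP4-positive plate, gave 2. The sign of 1 member turned: Ptger4 in mural-like cells, at -3.54 with cells of at most 10 CPM of endothelial genes. No paired analysis was possible because mice are nested in sex for the sex contrasts and for the sex by subtype interaction the mouse is already the block.

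Limits are few mice, a class that came from 2 mice for mural-like and macrophage-like cells, plates that mostly hold 1 sort each, and folds against classes with almost no reads, which depend on the prior count. Calls close to a limit (Ptgir, Ptger4 and Ptgs1 between subtypes) move with single mice.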
